A study of Zea mays with 6 samples.

Results

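The maize varieties DKC6575 and Tietar were compared in leaves sampled in 3 field conditions, and the differences that held in all 3 were described. DKC6575 is a commercial hybrid that carries the MON810 event, a cassette in which the cauliflower mosaic virus 35S promoter and an intron of maize HSP70 drive a truncated synthetic CryIAb gene for an insecticidal toxin. Tietar is its near-isogenic hybrid without the event. The conditions were T1 fully irrigated (V8, a vegetative stage), T2 fully irrigated (R1, silking) and T2 not irrigated (R1). Irrigation was at 100% of field capacity in the irrigated plants and at 0% in the others. All 6 arrays of the series were used, 1 per variety and condition, so each condition gave 1 pair of arrays and each variety 3 arrays. No array was shared between pairs. The study took leaves from 3 micro-plots per variety and stage, and how these entered the arrays is not given in the sources used here.

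Each probe set reads 1 transcript or a small group of related transcripts. After 113 control probe sets were left out, 17621 remained, and in 10383 of them the log2 signals averaged 6 or more (a signal of 64) over the 6 arrays. Only these brighter probe sets were tested. A difference is always the log2 signal of Tietar minus that of DKC6575 in the same condition, so a value of 1 is 2-fold higher in Tietar.

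Near-isogenic hybrids share most of their genome, but their parent lines can still carry different alleles at some loci. Leaves of maize fix carbon through the C4 cycle, in which mesophyll cells capture CO2 and bundle sheath cells release it to Rubisco, and they meet drought with chaperones, calcium signalling and hormones such as abscisic acid. The transgene, other differences between the hybrids, how well the probes match each hybrid and the position of the plants in the field cannot be told apart with these arrays.

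Of 12 brighter leaf markers, several were bright on every array and others were not. Carbonic anhydrase (Zm.11861.1.A1_at) had signals between 131 and 193. Chlorophyll a-b binding protein 2 went from 15988 at T1 to 175 at T2 not irrigated in DKC6575, and from 8584 to 107 in Tietar. The C4 enzyme phosphoenolpyruvate carboxylase (pep1) had signals between 13901 and 24718, and the small subunit of Rubisco (rbcS) between 8851 and 15624, on the 6 arrays. On the T2 arrays pollen transcripts were present as well. Of 10 brighter pollen markers, 8 were higher on all 4 T2 arrays than on both T1 arrays. Their summed signal was 251 and 321 at T1 and 1700 to 3465 on the 4 T2 arrays, a rise whose direction their choice fixes. The remaining markers, PRO4 and DBB11, had signals between 4664 and 7817 on the 6 arrays and were bright at T1 too. No probe set was named as a zein, so seed tissue was not checked. The median log2 signal of the spiked controls differed by at most 0.15 within a pair, and no control probe set differed 2-fold in all 3 pairs. The actin control at the tail end of its transcript read above that at the start by a log2 of 4.25 to 4.67. That is a strong bias to the tail end on all 6 arrays, and it differed by at most 0.10 within a pair. On each array 39.6% to 41.6% of probe sets read below 64. Precision is limited by how few arrays there are.

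Few leaf transcripts separated the varieties in every condition. Among 10383 brighter probe sets, 7 had 2-fold or more in favour of Tietar in all 3 pairs (0.0674%) and 4 were at least 2-fold lower (0.0385%). At 1.5-fold the numbers were 16 (0.154%) and 11 (0.106%). Of these 27 probe sets, 13 had a signal under 64 on some array, against 675 of all 10383. A fit over the 3 pairs with limma, which asks whether the variety difference is large against its spread among the conditions, called 6 probe sets higher in Tietar (0.0578%) and 2 lower (0.0193%) at an adjusted p under 0.05. All 6 higher calls were lost in each of the fits without the intensity trend, without the pair term and without the T1 pair. Without adjustment, 357 were higher (3.44%) and 298 lower (2.87%) at p under 0.05. Of the 8 called, 7 were among the 11 that differed 2-fold, which gives 12 probe sets in either set.

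Single pairs held many more differences. At T1, 65 were 2-fold or more higher in Tietar (0.626%) and 26 lower (0.250%). At T2 under full irrigation 94 were higher (0.905%) and 55 lower (0.530%). Without irrigation 81 were higher (0.780%) and 33 lower (0.318%). The standard deviation of the difference over all brighter probe sets was 0.275, 0.318 and 0.277 in the 3 pairs, and between 94.2% and 95.9% of the probe sets lay within 1.5-fold.

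Differences in 1 condition were weakly related to those in another. Across the 10383 probe sets the Pearson correlation of the differences was 0.164 between T1 and T2 fully irrigated, 0.238 between T1 and T2 not irrigated, and -0.0123 between the T2 pairs. No p was computed, as probe sets are no replicates of one another. The same sign in all 3 pairs was found in 1405 probe sets for higher (13.5%) and in 1390 for lower (13.4%). In 219 probe sets all 3 Tietar signals lay above all 3 DKC6575 signals (2.11%), and in 228 they lay below (2.20%).

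**Figure D1:**
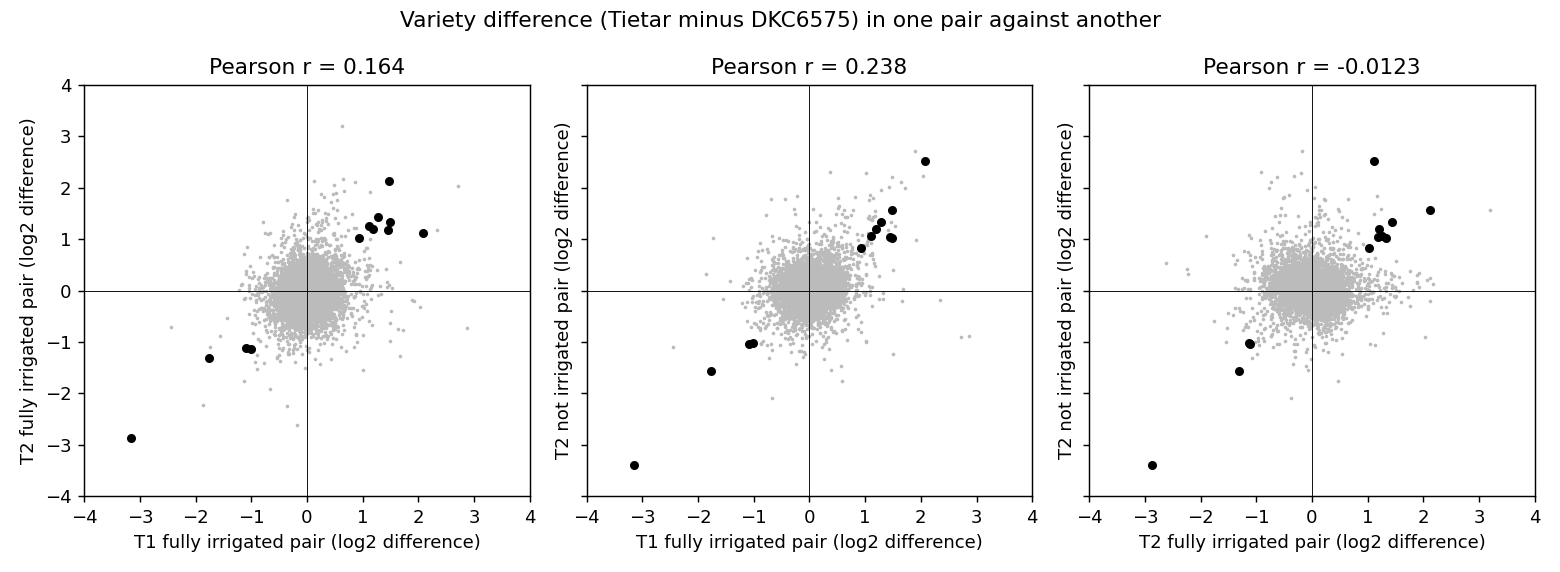
The log2 difference (Tietar minus DKC6575) of each of the 10383 brighter probe sets in 1 pair is plotted against that in another, in grey, with the 12 probe sets that differed 2-fold in all 3 pairs or were called by limma in black. The grey cloud is close to round, with r between -0.0123 and 0.238, and the black points lie in the lower left and upper right of all 3 panels.

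Probe sets that differed 2-fold in 2 of the conditions were followed into the third. Of 11 probe sets at least 2-fold higher in Tietar in both T2 pairs, 7 were so at T1, and of 6 lower in both, 4 were. Of 12 higher at T1 and at T2 under irrigation, 7 were higher at T2 without irrigation, and of 7 lower, 4 were. Of 31 higher at T1 and at T2 without irrigation, 7 were 2-fold higher at T2 under irrigation (22.6%). The 31 had a median difference of 0.11 there, while 4 of 5 lower probe sets were also 2-fold lower there. The 7 and the 4 are the same 11 probe sets each time, so these counts are not separate results. Over all brighter probe sets, 0.250% to 0.905% were 2-fold higher or lower in a single pair.

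Among the transcripts higher in Tietar, the only one with an enzyme title was Zm.4471.2.S1_at, titled pyruvate, orthophosphate dikinase1 (PPDK), which makes phosphoenolpyruvate from pyruvate in the C4 cycle. In DKC6575 its signals were 313 at T1, 219 at T2 fully irrigated and 162 at T2 not irrigated. In Tietar they were 870, 956 and 479. All 3 Tietar signals lay above all 3 of DKC6575, although both varieties were lowest without irrigation. The differences were 1.47, 2.13 and 1.56, and the fitted difference was 1.72 ± 0.14 (standard error, 3 pairs, limma adjusted p = 0.012).

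A transcript for a protein of unknown function, LOC100191400 (Zm.1133.1.S1_at, chromosome 7 of the B73 assembly NAM-5.0), was 2.55-fold higher in Tietar. Its signals were 134, 131 and 108 in DKC6575 and 326, 352 and 272 in Tietar, in the order T1, T2 fully irrigated and T2 not irrigated. The condition moved it little in either variety and the varieties did not overlap (fitted difference 1.35 ± 0.12, limma adjusted p = 0.014). LOC100193878 (Zm.16811.2.A1_at, chromosome 8), also titled hypothetical, was higher at T2 than at T1 in both hybrids. Its signals were 86.3 at T1 and 184 and 158 at T2 in DKC6575, and 236, 420 and 326 in Tietar. The differences were 1.45, 1.19 and 1.04, with a fitted difference of 1.23 ± 0.13 (limma adjusted p = 0.034).

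The steadiest difference belonged to Zm.7904.1.A1_at, which has no name in the tables used here. DKC6575 had signals of 557, 437 and 572, and Tietar had 1271, 1006 and 1309. The hybrids kept the same distance while both dipped at T2 under irrigation, with differences of 1.19, 1.20 and 1.19 (fitted 1.20 ± 0.08, limma adjusted p = 0.0033). Zm.7701.1.A1_at, also unnamed, had 195, 192 and 224 in DKC6575 and 545, 483 and 454 in Tietar (fitted 1.28 ± 0.12, limma adjusted p = 0.022). Zm.6494.1.A1_at, unnamed, had 330, 330 and 392 against 631, 671 and 693. Its fitted difference of 0.93 ± 0.09 passed the test (limma adjusted p = 0.025), though only 1 of its 3 differences, 1.02 at T2 under irrigation, reached 2-fold.

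The largest fitted difference of a transcript higher in Tietar did not pass the test. It was that of Zm.12139.1.A1_at, titled EF-hand Ca2+-binding protein CCD1, a small protein of the family that binds calcium through EF-hand loops. Its signals in DKC6575 were 468, 83 and 348, and in Tietar 1982, 179 and 1994. Both hybrids had far less of it at T2 under irrigation than in the other conditions, so the ranges of the varieties overlapped. The differences were 2.08, 1.11 and 2.52 (fitted 1.90 ± 0.24, limma adjusted p = 0.071). Zm.7734.1.A1_at, unnamed, also missed the threshold (fitted 1.14 ± 0.18, limma adjusted p = 0.19). Its 3 signals in DKC6575, between 36.3 and 56.3, were all under 64, against 91.6, 86.5 and 117 in Tietar.

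**Figure D2:**
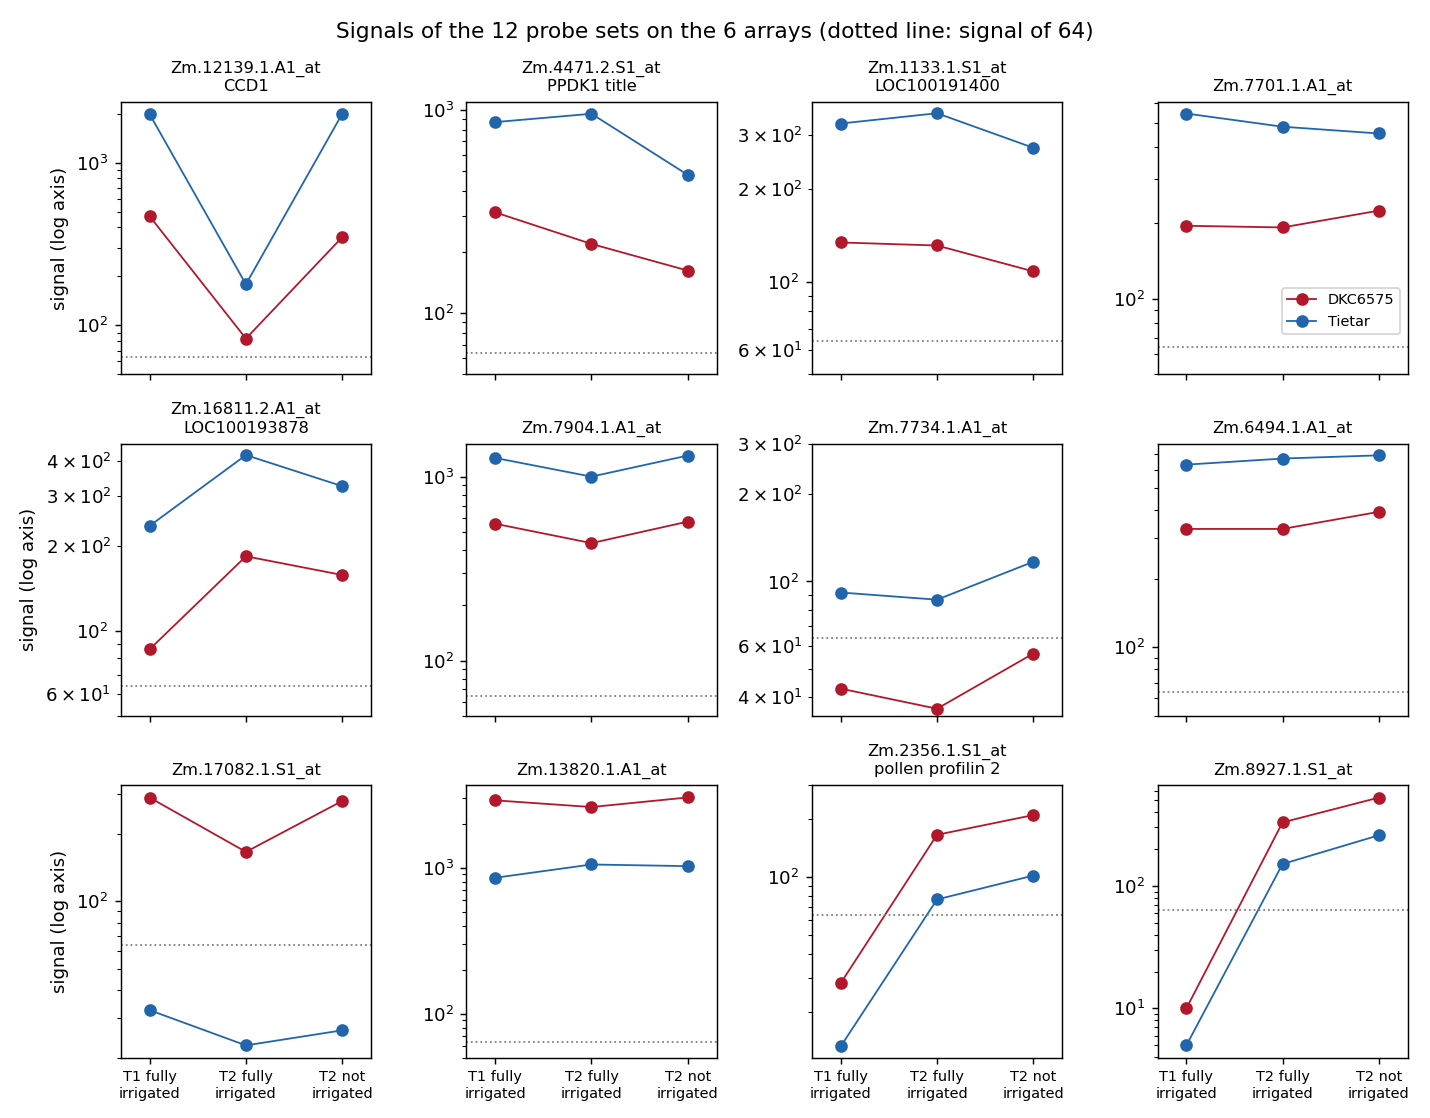
Signals of the 12 probe sets (log axis, each panel with its own range) on the DKC6575 arrays (red) and Tietar arrays (blue) at T1 fully irrigated, T2 fully irrigated and T2 not irrigated, 1 array each, with a dotted line at a signal of 64. The lines of the varieties never cross, but CCD1 is low at T2 fully irrigated in both varieties and Zm.2356.1.S1_at and Zm.8927.1.S1_at are below 64 at T1 in both.

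The transcripts lower in Tietar were led by Zm.17082.1.S1_at, which has no name in the tables used here. DKC6575 had signals of 290, 166 and 280, and Tietar had 32.6, 22.7 and 26.5. The Tietar signals were all under 64, where arrays are noisy, and the varieties were far apart in every condition. The differences were -3.15, -2.87 and -3.40 (fitted -3.14 ± 0.19, limma adjusted p = 0.0033). With signals under 64 set to 64, they were -2.18, -1.37 and -2.13.

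Zm.13820.1.A1_at, also unnamed, was bright in both hybrids. Its signals were 2893, 2604 and 3028 in DKC6575 and 854, 1053 and 1026 in Tietar. Neither stage nor irrigation moved it by as much as the variety did (fitted -1.54 ± 0.10, 2.91-fold lower, limma adjusted p = 0.0033).

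Both other probe sets that were 2-fold lower in all 3 pairs were transcripts of the T2 stage. Zm.2356.1.S1_at, titled pollen profilin variant 2, an actin-binding protein, had signals of 28.3, 166 and 210 in DKC6575 and 13.3, 76.7 and 102 in Tietar. Zm.8927.1.S1_at, unnamed, had 10, 330 and 526 against 4.99, 151 and 259. Their T1 signals were all under 64, so the T1 differences of -1.09 and -1.01 come from signals where arrays are noisy. Neither passed (limma adjusted p = 0.20 and 0.18).

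**Figure D3:**
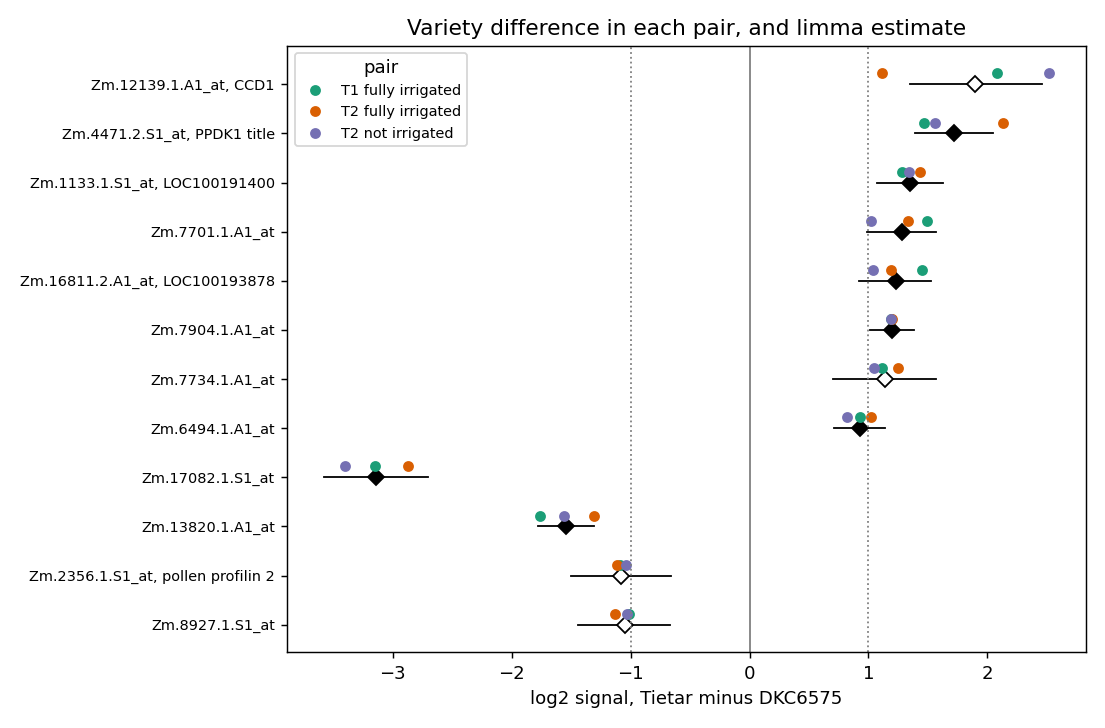
Log2 signal of Tietar minus DKC6575 for the 12 probe sets, with 1 coloured point per pair above the limma estimate (diamond) and its 95% confidence interval (line), and dotted lines at 2-fold. The 8 filled diamonds passed an adjusted p under 0.05, and the 4 open ones did not, among them CCD1 with the widest scatter of its 3 points.

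Just outside the 2-fold threshold lay 5 brighter probe sets whose smallest difference was nearest to it. Alpha-expansin 3 (Zm.3016.1.S1_at), which loosens cell walls, had differences of -0.84, -0.97 and -0.98. The small heat shock protein hsp18c (Zm.16504.2.S1_at) had 1.05, 0.82 and 1.13. Its DKC6575 signals, 35.2, 48.4 and 58.3, were all under 64, and with signals under 64 set to 64 its differences were 0.19, 0.42 and 0.99. Zm.6494.1.A1_at, described above, had 0.93, 1.02 and 0.82. The smallest differences of LOC100274682 (Zm.12951.1.S1_at) and LOC100277818 (Zm.10513.1.S1_at) were -0.77 and -0.73. Of the 5, only Zm.6494.1.A1_at had no signal under 64. The members just inside had smallest differences of -1.04 (pollen profilin variant 2), 1.02 (Zm.7701.1.A1_at) and -1.01 (Zm.8927.1.S1_at).

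A light-harvesting transcript also had signals at least 1.5-fold lower in Tietar in all 3 pairs. Chlorophyll a-b binding protein 2 (Zm.13239.3.S1_at), which holds pigment in the antenna, had signals of 15988, 1169 and 175 in DKC6575 and 8584, 408 and 107 in Tietar. It was lower at T2 than at T1 in both hybrids by far more than the varieties differed, and the varieties overlapped. Its differences were -0.90, -1.52 and -0.72 (fitted -1.05 ± 0.15, limma adjusted p = 0.12).

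Some members had other probe sets of the same cluster number, the first number of the probe set ID. All 11 that differed 2-fold had the plain ending _at, the kind meant to read 1 transcript, against 84.8% of the brighter probe sets. For 3 of the 11, another brighter probe set carried the same cluster number, and in 0 of the 3 did it differ the same way in all 3 pairs. Of the 27 probe sets at 1.5-fold, 9 had such a partner and in 5 a partner had the same sign throughout. Over all brighter probe sets the numbers were 789 of 2529 (31.2%), and 3 or 9 probe sets are too few to set against that share. Such probe sets can read different transcripts or different stretches of 1 transcript.

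PPDK had 5 brighter partners. The probe sets that the platform annotation gives to the C4 gene pdk1 (C4ppdkZm1, chromosome 6) and read at a high level, Zm.4471.1.A1_a_at, Zm.4471.1.A1_x_at and Zm.4471.3.A1_x_at, had signals between 12712 and 29441. Their differences were 0.09, 0.35 and -0.10 for the first and no larger than 0.39 for the others, with limma adjusted p between 0.93 and 0.94. Zm.4471.2.S1_a_at, bright as well, had -0.20, 0.01 and -0.15, and Zm.4471.4.A1_at, also given to pdk1, had signals between 196 and 237. Zm.4471.2.S1_at, whose signals lay between 162 and 956, carries the PPDK title but has no single gene in the annotation used here. Whether it reads pdk1 or a related transcript is not shown.

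Zm.17082.1.S1_at had 1 partner, Zm.17082.1.S1_s_at (several transcripts), with signals of 1301, 1275 and 1256 in DKC6575 and 1494, 1686 and 1216 in Tietar. Its differences were 0.20, 0.40 and -0.05 (limma adjusted p = 0.86). The partner of Zm.16811.2.A1_at, Zm.16811.1.S1_at, had -0.16, -0.13 and -0.05. For chlorophyll a-b binding protein 2 the partner Zm.13239.2.A1_at, far brighter, had 0.01, 0.10 and -0.35. Its other brighter partner, Zm.13239.1.A1_at, had 0.87, -0.10 and -0.47.

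The ribosomal protein L29 of the large subunit was one of these 5, as was hsp18c. Zm.6684.1.S1_x_at had signals of 399, 816 and 765 in DKC6575 and 811, 1247 and 1416 in Tietar (fitted 0.84 ± 0.10, limma adjusted p = 0.060). Zm.6684.1.S1_a_at differed by 1.08, 0.38 and 1.08, and Zm.6684.4.S1_at, under the brightness limit, by 0.70, 1.47 and 0.76. All 3 were higher in Tietar in every pair. Neither of the first 2 passed, the third was not tested, and the first, by its ending _x_at, may also read related transcripts.

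**Figure D4:**
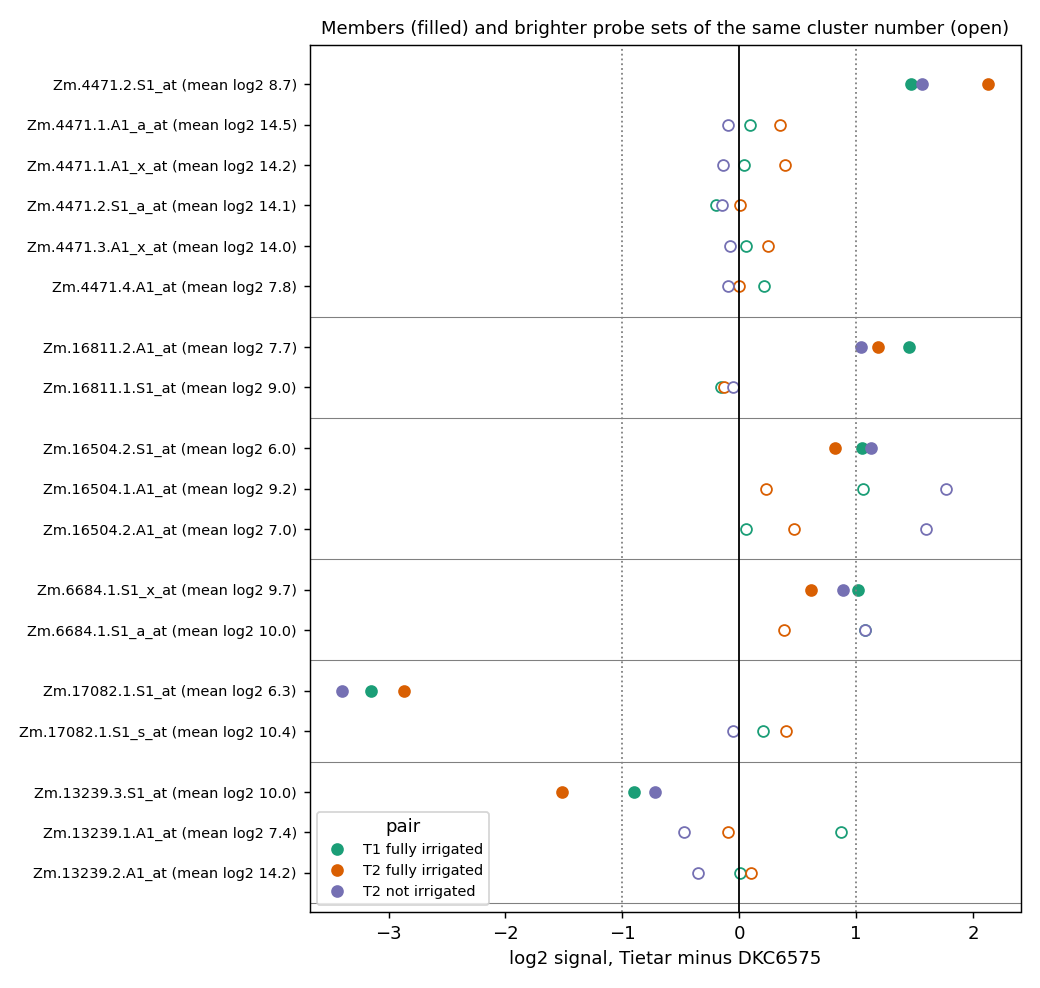
Log2 signal of Tietar minus DKC6575 in the 3 pairs for 6 probe sets that differed by at least 1.5-fold in all pairs (filled) and the brighter probe sets of the same cluster number (open), with the mean log2 signal in brackets. In the groups numbered Zm.4471, Zm.17082 and Zm.16811 the open points lie near 0, and in the groups of ribosomal protein L29 (Zm.6684) and hsp18c (Zm.16504) all open points lie on the side of the member.

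Genes named in the files were then read by function. The lists hold probe sets found by title or symbol, and most titles come from a table of genes that the study chose as changed on these arrays, so a list is no random sample of its pathway. Over all brighter probe sets the median difference was 0.00, -0.01 and 0.01 in the 3 pairs, 13.5% were higher and 13.4% lower in all 3, and 3.44% were higher and 2.87% lower at unadjusted p under 0.05. The lists are set beside these shares, and the small counts of several lie near them. The comparison is uneven, since members found by the study's titles were chosen as changed.

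Transcripts for photosynthesis were close to equal, and photosynthesis itself is not measured by these arrays. Of 21 brighter probe sets for C4 and carbon fixation, limma called 1 higher, Zm.4471.2.S1_at, and 0 lower, with 1 higher and 0 lower at unadjusted p under 0.05. The medians were -0.02, 0.19 and -0.10. Only at T2 under irrigation were most of them higher in Tietar, 17 of 21, against 10 of 21 at T1 and 6 of 21 without irrigation. Of all 10383 brighter probe sets, 5219 were higher at T1, 5032 at T2 under irrigation and 5355 without irrigation. PPCK1 (Zm.8321.1.S1_at), a kinase of phosphoenolpyruvate carboxylase, had 0.02, 0.59 and 0.16. Of 25 brighter probe sets for light harvesting and photosystems, 0 were called by limma (0 higher and 1 lower at unadjusted p under 0.05), with medians of -0.05, 0.12 and -0.13. They shared the pattern of the C4 list, with 7, 19 and 6 of 25 higher in Tietar in the 3 pairs.

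Heat shock proteins, chaperones that hold or refold damaged proteins, had their highest median difference in the pair without irrigation. Of 21 brighter probe sets, limma called 0, while 8 were higher and 0 lower at unadjusted p under 0.05. In all 3 pairs 8 of 21 were higher (38.1%, against 13.5% of all brighter probe sets) and 0 were lower. Among these 8, hsp70-5 and hsp18c each appear more than once, so the 8 stand for fewer genes. The medians were 0.17, 0.00 and 0.52. At T2 without irrigation 5 were at least 2-fold higher, at T1 3, and at T2 under irrigation 0. Most list titles came from genes the study chose as changed on these arrays, so these counts are not those of an unselected group.

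Heat shock protein18f (Zm.16504.1.A1_at, chromosome 3), a small chaperone, had signals of 310, 310 and 738 in DKC6575 and 649, 364 and 2519 in Tietar. Both hybrids were highest without irrigation, and the difference there, 1.77, was the largest of its 3 (fitted 1.02 ± 0.25, limma adjusted p = 0.39). A class I heat shock protein (Zm.2482.1.A1_at) had differences of 1.13, 0.40 and 0.72 (limma adjusted p = 0.29). Another probe set with the same title, Zm.3693.1.A1_at, had -0.26, 0.00 and 0.23 (limma adjusted p = 0.99). The HSP70 genes were examined because the MON810 cassette holds an HSP70 intron. Of their 8 brighter probe sets, limma called 0 (2 higher and 0 lower at unadjusted p under 0.05), and 4 were higher and 0 lower in all 3 pairs. All of these 4 but Zm.4273.2.A1_at belong to 1 gene, hsp70-5, with differences from 0.05 to 0.30. Heat shock 70 kDa protein 4 (Zm.4273.2.A1_at) was nearest, with 0.51, 0.17 and 0.52 (limma adjusted p = 0.39). No probe set was identified here as the transgene itself.

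Calcium-binding proteins and transcription factors had medians between -0.04 and 0.08 in the 3 pairs. Of 24 brighter probe sets for calcium-binding proteins, limma called 0, while 3 were higher and 0 lower at unadjusted p under 0.05, CCD1 among them. A calcium-dependent protein kinase (Zm.15283.1.A1_at) had differences of 0.38, 0.38 and 0.33. Calmodulin (Zm.15061.1.S1_at), a calcium sensor, had 0.65, -0.02 and 0.65. Of 52 brighter probe sets for transcription factors, limma called 0 (3 higher and 1 lower at unadjusted p under 0.05). In all 3 pairs 8 of the 52 were higher (15.4%, against 13.5% of all brighter probe sets) and 12 lower (23.1%, against 13.4%). DRE binding factor 1 (Zm.10842.1.S1_a_at, chromosome 1), which binds promoters of drought and cold genes, had signals of 183, 165 and 250 in DKC6575 and 377, 215 and 481 in Tietar (fitted difference 0.79, limma adjusted p = 0.27). Ethylene-responsive element binding protein 2 had 0.56, 0.49 and 1.05, and a zinc finger protein of the C3HC4 type (Zm.16968.1.S1_at) had -0.70, -0.32 and -1.05.

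The cytosolic ribosomal proteins, the core of the translation machinery, had small positive medians. Of 136 brighter probe sets, limma called 0, while 13 were higher and 0 lower at unadjusted p under 0.05. In all 3 pairs 41 were higher (30.1%, against 13.5% of all brighter probe sets) and 5 lower (3.68%, against 13.4%), with medians of 0.12, 0.06 and 0.06. Probe sets of 1 gene and of near-identical gene copies are counted separately here and can share signal.

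In the other lists of function limma called 0 probe sets, and counts at unadjusted p stand against 3.44% higher and 2.87% lower over all brighter probe sets. Of 56 brighter probe sets for hormones and abscisic acid, 8 were higher and 2 lower at unadjusted p under 0.05, and of 47 for detoxification 4 and 3. Glutathione S-transferase2 (Zm.17839.1.S1_at, chromosome 10), which couples glutathione to toxic compounds, had 0.45, 0.43 and 0.27. Of 27 for benzoxazinoid and other defence, 0 were higher and 2 lower, of 28 aquaporins 0 and 1, of 25 for the cell wall 1 and 2, of 7 LEA proteins and dehydrins 1 and 2, of 10 histones 2 and 0, and of 9 markers of dividing cells 2 and 0. Of 13 for phenylpropanoids and flavonoids, 10 for the clock and flowering and 4 in a storage list, 0 were higher and 0 lower at that level. The storage list held ohp1, ohp2, leg1 and a legumin-like protein, and no zein. Of 2 for transposons 0 were higher and 1 lower. The retrotransposon protein of the SINE subclass (Zm.1846.1.A1_at) had signals of 815, 802 and 465 in DKC6575 and 599, 604 and 294 in Tietar (limma adjusted p = 0.26).

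Pollen transcripts had lower signals in Tietar at T2. Pollen carries abundant profilins, allergens and pectin-degrading enzymes that leaves hardly make, and R1 is the stage at which maize sheds it. Of 19 probe sets for pollen markers, 10 were brighter, and 8 of these were higher on all 4 T2 arrays than on both T1 arrays. Their summed signal was 251 at T1 and 3172 and 3465 at T2 in DKC6575, and 321, 1700 and 1874 in Tietar. All 8 were lower in Tietar in both T2 pairs, by -0.50 to -1.23, with medians of -0.92 and -0.76. At T1, where exopolygalacturonase1, an enzyme of pollen tubes, had signals of only 2.51 and 7.06, their median was 0.56. Limma called 0 of the 10 (0 higher and 3 lower at unadjusted p under 0.05). PRO4 and DBB11, the brighter markers outside the 8, had T2 differences between -0.11 and 0.10.

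Exopolygalacturonase1 (Zm.3554.1.S1_at, chromosome 6) had signals of 1139 and 1307 at T2 in DKC6575 and 576 and 555 in Tietar. The pollen allergen Zea m 1 (chromosome 5) had 296 and 267 against 130 and 170. In bulk leaf RNA, less of a cell type and less RNA per cell cannot be told apart. Of the 27 probe sets that differed 1.5-fold in all 3 pairs, 5 shared this profile, under 64 on both T1 arrays and at least 64 on all 4 T2 arrays: pollen profilin variant 2, alpha-expansin 3, LOC100192853 (Zm.10508.1.S1_at, chromosome 7), LOC100277818 (Zm.10513.1.S1_at, chromosome 4) and Zm.8927.1.S1_at. All 5 were lower in Tietar, with T2 differences from -1.30 to -0.70. The part of pollen in the difference of these 5 was not tested.

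**Figure D5:**
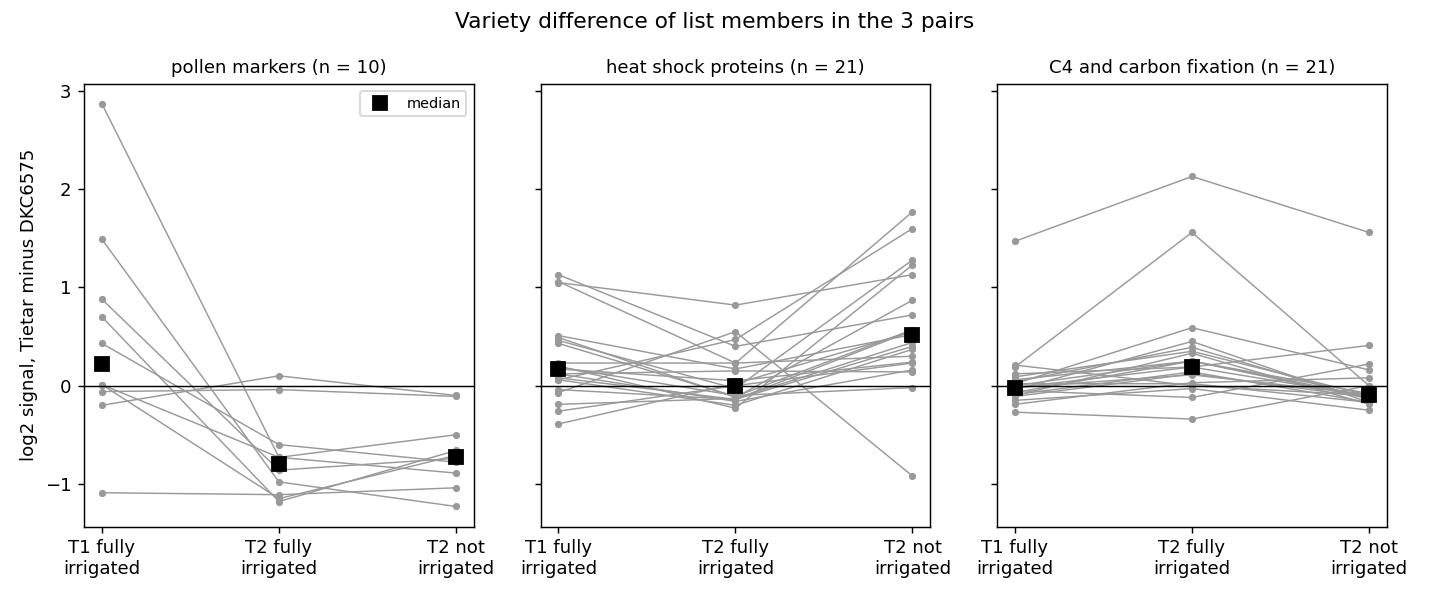
Log2 signal of Tietar minus DKC6575 for each brighter probe set (grey, joined across the pairs) of the pollen markers, the heat shock proteins and the list for C4 and carbon fixation, with the median as a black square. The pollen markers are at -0.80 and -0.73 in the T2 pairs, the heat shock proteins highest at 0.52 in the T2 not irrigated pair, and the C4 list near 0 but for 17 of 21 members above it at T2 fully irrigated.

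A further group was at least 2-fold apart at T1 and at T2 without irrigation but not at T2 under irrigation. Besides the 11 that differed in all 3 pairs, 25 probe sets differed 2-fold the same way in both of these, 24 higher and 1 lower. In the 24, the difference at T2 under irrigation ran from -0.78 to 0.82 with a median of 0.06. For 22 of the 24 the T2 fully irrigated array was the lowest of the 3 Tietar arrays, and for 18 it was the lowest of DKC6575, against 29.7% and 25.1% of all brighter probe sets. The choice of these probe sets fixes part of that pattern in Tietar.

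Of the 24, 16 had a name or gene number. Grancalcin (Zm.1162.1.S1_at), titled after a calcium-binding protein, had signals of 145, 81.3 and 114 in DKC6575 and 478, 47.5 and 455 in Tietar. A ZIM motif family protein (Zm.10850.1.S1_at), of the family that restrains jasmonate responses, had 252, 100 and 205 against 532, 75.6 and 738. The senescence-associated protein DH (Zm.1425.1.S1_at, chromosome 7) had 321, 246 and 201 against 855, 328 and 453, and of these 3 it alone had varieties that did not overlap. A harpin inducing protein, polcalcin Jun o 2 and heat shock protein18f belonged to the same group. In the limma fit over all 3 pairs none of the 24 passed.

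Leaving out pairs showed how far the calls rest on these conditions. Without the T2 fully irrigated pair, limma called 117 probe sets, among them all 8. Without the T2 not irrigated pair it called 23, again with all 8, and without the T1 pair 2, Zm.17082.1.S1_at and Zm.13820.1.A1_at. With 2 pairs the spread is estimated from a single degree of freedom per probe set before moderation.

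Outside the brighter probe sets, 1 more separated the varieties. Zm.13168.1.A1_at, unnamed, had signals of 186, 147 and 167 in Tietar and 0.863, 1.49 and 1.17 in DKC6575, so its mean over the 6 arrays was too low for the filter. In Tietar it read clearly above 64 in every condition, and in DKC6575 it was near the bottom of the scale on all 3 arrays. With signals under 64 set to 64, the differences were 1.54, 1.20 and 1.39. It was singled out after its values were seen, and no test is given for it.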

How the data were processed

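Leaf RNA was hybridized to 6 Affymetrix Maize Genome arrays, 1 per variety and condition. The authors' methods name RMA and the Partek software, but the values they deposited are linear intensities whose 2% trimmed mean is 500.2 or 500.3 on every array. They were used as deposited and converted to log2. RMA could not be repeated without probe-level files. Names came from the platform annotation (1452 probe sets with 1 gene), a table of titles from the study (2002 probe sets) and the RefSeq gene table of NAM-5.0, which also gave chromosomes. Fold changes in the study's tables were not used. Members and gene lists were chosen with earlier results of these data known.

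The main test was limma 3.58.1 in R 4.3.3 (pair and variety as terms, empirical Bayes with intensity trend, Benjamini-Hochberg adjustment over 10383 probe sets, threshold 0.05), with 2 residual degrees of freedom per probe set. Its p-values measure the spread of the variety difference among 3 conditions, since no condition had replicate arrays. Genes named were those at least 2-fold different in all 3 pairs, those called by limma, up to 3 members per list by p, probe sets 2-fold different in opposite directions, and HSP70 genes. All others, such as those from 2 of the 3 pairs, just outside the threshold or sharing a cluster number with a member, were named after their values were seen. Alternatives changed the filter, scaling, floor, fold threshold, moderation and block. Python 3.11.15 was used for counts.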

Additional observations from a re-analysis of the deposited data

Results flagged for a closer look

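In 8 brighter probe sets the variety difference was at least 2-fold in opposite directions in different conditions. None of these changes of direction was tested, since each condition had 1 pair of arrays. The range from the lowest to the highest log2 difference was 2.97 for a beta-D-glucosidase precursor (Zm.418.1.A1_at), which releases defence compounds from their glucosides. Its signals were 2081, 315 and 275 in DKC6575 and 1312, 83.8 and 575 in Tietar, in the order T1, T2 fully irrigated and T2 not irrigated. Invertase2 (Zm.231.1.S1_at), which splits sucrose, had a range of 2.22, with differences of -0.18, -1.14 and 1.08. Both were lower in Tietar under irrigation at T2 and higher without it, but the Tietar signal of invertase2 under irrigation at T2 was 52.3, and with signals under 64 set to 64 that difference was -0.84.

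LOC100272630 (Zm.3630.1.A1_at) followed the same order, with a range of 2.76 and differences of -1.74, -1.09 and 1.02. The reverse order was seen in AGA3b (Zm.19172.1.A1_at), with a range of 2.18 and differences of -0.76, 1.13 and -1.06, and in the unnamed Zm.4524.1.A1_at, with a range of 2.09. The unnamed Zm.8882.1.S1_at, with a range of 2.94, was higher in Tietar at T1 and lower at T2 under irrigation. Exopolygalacturonase1 (Zm.3554.1.S1_at, range 2.73) and LOC100192566 (Zm.3078.1.S1_at, range 2.55) also went from higher to lower, but their T1 signals were under 64 in both varieties.

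Outside the brighter probe sets, Zm.13168.1.A1_at had a smallest difference of 6.62 in the 3 pairs and fell out of the comparison because its DKC6575 signals, 0.863 to 1.49, pulled its mean under the limit. Signals so low carry no fold of their own, and no other probe set under the limit that differed 2-fold in all 3 pairs reached 64 on all 3 arrays of 1 variety.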

How the results depend on the processing

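No variety difference of the 12 probe sets changed sign under any alternative. Each had the same sign in all 3 pairs, which leaving out a pair, the trend, the block or the filter could not change. Zm.17082.1.S1_at passed in all of its alternatives and Zm.13820.1.A1_at in all but the fit without an intensity trend (adjusted p = 0.059). The other 6 calls were lost without the trend, without the block and without the T1 pair, and kept otherwise, except that Zm.1133.1.S1_at and Zm.16811.2.A1_at, and also Zm.17082.1.S1_at, are under the filter at a mean log2 of 8 and could not be fitted there. CCD1 passed in 5 of 13 alternatives, with adjusted p between 5.84e-07 and 1. Limma called 0 higher and 1 lower without the trend (647 at unadjusted p under 0.05), 0 higher and 2 lower with no replicate block, that is without the pair term (126 at unadjusted p under 0.05), and 1 lower with the filter at 8. Leaving out 1 pair in turn gave 0 to 91 calls higher and 2 to 26 lower, and 11 to 31 probe sets higher and 5 to 7 lower at 2-fold in all remaining pairs.

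At 2-fold in all pairs, 118 were higher and 64 lower without a filter, 4 and 1 with the filter at 8, 4 higher with cyclic loess, 2 lower with the floor at 64, 2 lower with the filter on either variety (chosen after seeing the data), and 2 higher and 1 lower with 1 probe set per annotated gene. At 1.5-fold there were 16 and 11, and at 3-fold 0 and 1. Within T1, T2 fully irrigated and T2 not irrigated, higher and lower at 2-fold were 1500 and 1196, 2055 and 1006, and 1163 and 1152 without a filter, and 23 and 3, 23 and 19, and 32 and 8 with the filter at 8. At 1.5-fold they were 236 and 186, 269 and 337, and 292 and 153, and at 3-fold 11 and 5, 18 and 6, and 21 and 3.

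Of the 7238 probe sets under the limit, 111 were 2-fold higher and 60 lower in all 3 pairs, and 4 of the 11 brighter ones had a signal under 64. With 1 array per condition, plants, plots and arrays cannot be told apart from the variety.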
